A study of Homo sapiens with 2 samples.

Results

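Tissue factor, its inhibitors and the thrombin receptors were described as 7 genes that start, limit and sense blood clotting at cell surfaces: TFPI2, TFPI, F3, THBD, F2R, F2RL1 and F2RL2. The members were the probe sets that the platform annotation assigned to exactly 1 of these genes, and the set was proposed with earlier results of these data in view. 15 probe sets of 6 of the 7 genes were found, among 41091 probe sets of 19775 genes in all; F2RL1, which encodes the receptor PAR2, had no probe set named here and was not analysed here. The cells were MDA-MB-231, an established human breast cancer line of the triple-negative type, which has neither hormone receptors nor an amplified ERBB2 gene. Per the labels, they were transfected for 48 h with a control siRNA (siCon) or with siRNA against KMO (siKMO), the gene of kynurenine 3-monooxygenase, a mitochondrial enzyme of tryptophan breakdown. The labels also name the arrays with shLUC and shK421, a style common for short hairpins, so which kind of construct was used was not settled. Total RNA was read on Affymetrix U133 Plus 2.0 arrays, with 1 array for each condition. There are no replicates, so no test was made, no value has an error, and each difference describes this pair of cultures. The members were chosen by the differences between these same arrays, which are therefore given as a description.

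Blood clotting starts when tissue factor, the membrane protein encoded by F3, binds factor VIIa and activates factor X, which leads to thrombin. TFPI, tissue factor pathway inhibitor, blocks that complex through its Kunitz domains, and its relative TFPI2 is a matrix-bound Kunitz protein that inhibits plasmin, trypsin and related proteases and only weakly the tissue factor complex. Thrombomodulin, encoded by THBD, binds thrombin at the cell surface and turns it from a clotting enzyme into an activator of protein C, an anticoagulant. Thrombin and other proteases also signal by cutting the N-terminal tail of the protease-activated receptors PAR1 (F2R), PAR2 (F2RL1), PAR3 (F2RL2) and PAR4 (F2RL3). Many carcinoma lines carry tissue factor, and TFPI2 is often silenced in tumours by methylation of its promoter.

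The promoters of the inhibitors TFPI2 and TFPI, whose RNA levels differed in opposite directions, and of F3, which both inhibitors are named for, are shown to let their sequences be compared. Each is the 250 bases before the gene's start in RefSeq, assembly GRCh38.p14, all on the minus strand and written 5′ to 3′. Capitals mark the letters GGGCGG, a core bound by SP1, and TGANTCA, a core bound by AP-1 factors, searched on both strands; no matches of different motifs overlapped. The TFPI2 window is chr7:93890754-93891003, that of TFPI is chr2:187554436-187554685 and that of F3 is chr1:94541760-94542009.
TFPI2: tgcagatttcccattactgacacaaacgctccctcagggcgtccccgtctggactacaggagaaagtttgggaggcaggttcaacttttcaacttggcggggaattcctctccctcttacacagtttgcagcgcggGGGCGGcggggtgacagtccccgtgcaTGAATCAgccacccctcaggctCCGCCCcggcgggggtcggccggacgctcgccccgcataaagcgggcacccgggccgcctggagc
TFPI: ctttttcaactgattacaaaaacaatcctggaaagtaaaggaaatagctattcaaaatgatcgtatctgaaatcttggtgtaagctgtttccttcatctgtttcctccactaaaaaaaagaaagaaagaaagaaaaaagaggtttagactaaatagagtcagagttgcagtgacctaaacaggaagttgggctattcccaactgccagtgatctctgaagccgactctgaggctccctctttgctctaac
F3: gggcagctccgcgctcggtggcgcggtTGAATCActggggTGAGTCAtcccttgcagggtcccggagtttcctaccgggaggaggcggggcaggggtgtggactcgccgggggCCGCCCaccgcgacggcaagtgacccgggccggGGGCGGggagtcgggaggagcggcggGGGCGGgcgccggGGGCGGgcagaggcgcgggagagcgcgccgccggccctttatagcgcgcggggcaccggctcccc

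The windows differed in base composition. The TFPI2 window was 64.4% G or C and held 20 CpG pairs, an observed over expected CpG ratio of 0.773. The TFPI window was 38.4% G or C with 2 CpG pairs, a ratio of 0.217. The F3 window was 78.0% G or C with 34 CpG pairs, a ratio of 0.94. Over 34788 promoter windows of the same length with distinct sequences, the medians were 58.0% and 0.556, so TFPI2 and F3 lay above both medians and TFPI below both. TFPI2 held 2 SP1 matches and 1 AP-1 match, at -87 to -81 bases from the start, whereas TFPI held no match of either. F3 held 4 SP1 matches and 2 AP-1 matches, at -223 to -217 and -210 to -204. Among all windows 42.6% held an SP1 match, 6.59% an AP-1 match, 1.41% both, and 0.405% at least 2 AP-1 matches. The E-box letters CACGTG, found in 6.31% of windows, were in none of the 3. Of the other members, the F2RL2 window held 1 AP-1 match at -37 to -31 and was 40.8% G or C, the F2RL1 window held 2 SP1 matches, at -162 to -157 and -77 to -72, and was 68.8% G or C, and THBD and F2R were not in the promoter table. A match says only that the letters are there.

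**Figure D1:**
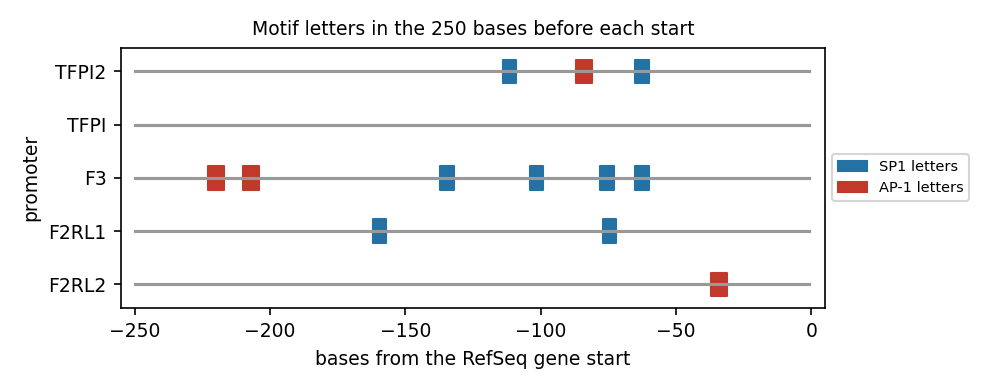
Matches of the SP1 letters GGGCGG (blue) and the AP-1 letters TGANTCA (red) in the 250 bases before the RefSeq start of 5 members, by distance from the start in bases. TFPI2 has 2 blue and 1 red boxes, F3 has 4 and 2, F2RL1 has 2 blue boxes, F2RL2 has 1 red box and TFPI has none.

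Levels below are the deposited values after robust multi-array averaging (RMA), on a log2 scale on which a difference of 1 is 2-fold. Differences are siKMO minus siCon. Where a gene has several probe sets, the one brightest on average gives its value, and a gene or probe set counts as measured where its mean over both arrays is at least 6. None of the 19 genes of liver, muscle, eye, pancreas and testis with a probe set reached that minimum. 5 of the members, all but F2RL1 and F2RL2, were measured, with 10 of their probe sets. Levels of different probe sets are not compared with each other, since probes differ in brightness.

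Genes listed for MDA-MB-231 and other mesenchymal breast cancer lines were present. VIM, CD44, EGFR, MSN, CAV1, AXL and LGALS1 stood between 9.76 and 12.96 on the 2 arrays, while ESR1, PGR and FOXA1 were under 6. GATA3 and ERBB2 were measured, at 7.42 and 7.44 in siCon. CDH1, the epithelial cadherin that MDA-MB-231 usually lacks, stood at 10.54 in siCon and 8.62 in siKMO. The epithelial genes CLDN7, EPCAM, OCLN and CD24 stood between 8.44 and 10.46 in siCon. These markers do not settle which line was used, so its identity rests on the labels. All 6 genes of an epithelial list (CDH1, EPCAM, OCLN, CLDN7, CD24 and CDH3) were measured. The list was put together after values were known, so nothing is read from its counts. All 6 were lower in siKMO, 5 of them by at least 2-fold, beside 44.1% and 1.39% of all measured genes. Their summed log2 level was 55.3 in siCon and 47.4 in siKMO. In bulk RNA, fewer cells of a type and less RNA per cell cannot be told apart, and the part of this shift in the differences below was not tested. All 6 platelet markers and the 5 leukocyte markers with a probe set were under 6. Of 8 endothelial markers, from 2.04 to 7.61 in siCon and from 2.31 to 6.61 in siKMO, ESAM alone was measured (7.61 and 6.61), and the defining CDH5, VWF and PECAM1 were under 6. The 3 probe sets of KMO lay between 2.11 and 2.95 on both arrays, below the minimum, so they check nothing about the knockdown.

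**Figure D2:**
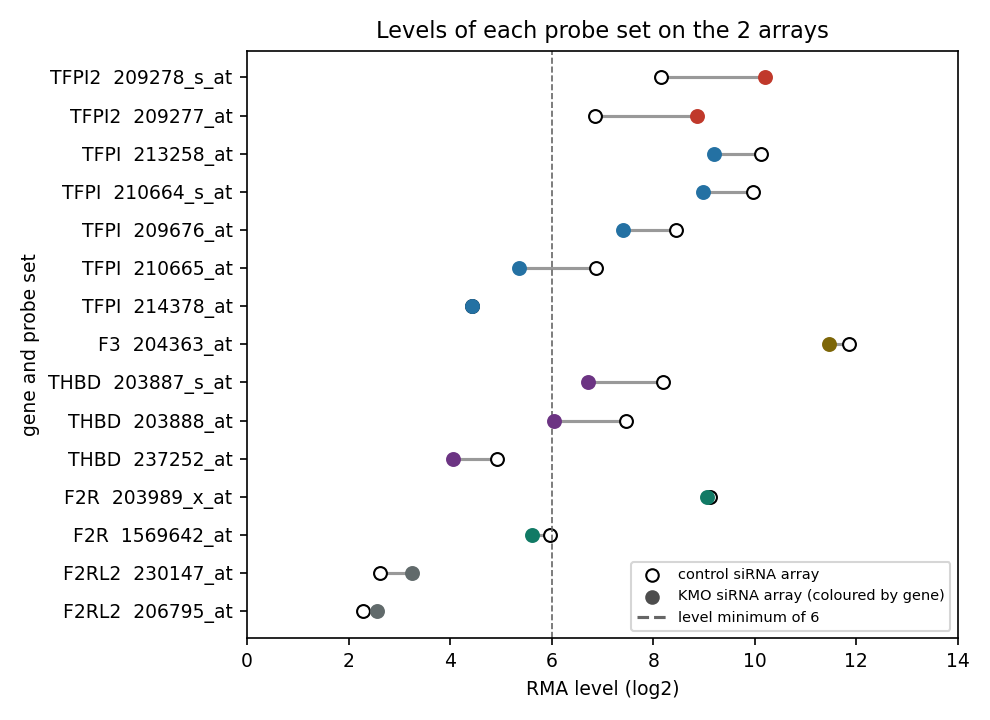
RMA level (log2, horizontal axis) of each of the 15 member probe sets in the control siRNA array (open circles) and the KMO siRNA array (filled circles), 1 array each; the dashed line is the level minimum of 6. Both TFPI2 probe sets are about 2 units higher in the KMO siRNA array, the 4 measured TFPI and 2 measured THBD probe sets are lower, and those of F2RL2 lie far under 6.

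TFPI2, the protease inhibitor of the extracellular matrix, was the one member higher by at least 2-fold. Its probe set 209278_s_at stood at 8.15 in siCon and 10.20 in siKMO, a difference of 2.05 or 4.14-fold. The second, 209277_at, stood at 6.85 and 8.86, a difference of 2.01 or 4.02-fold. The siKMO level was thus the higher one with both probe sets, by nearly the same amount. Probe sets of 1 gene share the RNA sample and are not replicates of the culture. Over all 8997 measured genes, a 2-fold higher level was found in 0.856%, and 0.371% of the 3777 genes with 2 or more measured probe sets were so with every one; the rule used this contrast, so nothing is read from these shares. TFPI2 had the third highest difference of all measured genes. The genes next to it in that order were SEMA3A at 2.12 and RSAD2 at 2.42 above it, and HSD17B10 at 2.03, IDO1 at 1.97 and EREG at 1.82 below it; the siCon levels of SEMA3A, RSAD2, IDO1 and EREG were under 6, so their differences are less certain. With only 2 arrays the size of the difference is the only measure of likeness.

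TFPI, the inhibitor of the tissue factor complex, was lower in siKMO. Probe set 213258_at stood at 10.12 in siCon and 9.19 in siKMO, a difference of -0.93 (1.91-fold lower). Probe set 210664_s_at stood at 9.97 and 8.99 (-0.98), and 209676_at at 8.46 and 7.40 (-1.05, 2.08-fold lower). The fourth, 210665_at, stood at 6.87 and 5.35, which is at least 1.83-fold lower with the siKMO level taken as 6. All 4 measured probe sets were thus lower by at least 1.5-fold, and 2 of them by at least 2-fold as deposited. Of the 467 genes with 4 or more measured probe sets, 6 (1.28%) were lower by at least 1.5-fold with all of them. The last TFPI probe set, 214378_at, had the same level of 4.44 on both arrays, under the minimum; 9.46% of all probe sets had identical values. TFPI is made as alpha and beta forms that differ at the C-terminal end, and the annotation does not say which form each probe set reads. Because its brightest probe set fell just short of 2-fold, TFPI is not in the count of members at least 2-fold lower, which is 1 of 5 measured members (THBD) beside 1.39% of all measured genes; by 1.5-fold the count is 2 of 5, beside 5.41%.

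F3 itself, tissue factor, had a high level on both arrays and a smaller difference. Its only probe set, 204363_at, stood at 11.85 in siCon and 11.46 in siKMO, a difference of -0.39 or 1.31-fold lower. Of all measured genes 23.4% differed by at least as much in either direction. Set against TFPI on the same arrays, F3 differed less, by 0.54 log2 units or 1.45-fold with the brightest TFPI probe set. The TFPI2 and TFPI differences lay 2.98 log2 units apart, so the ratio of the first to the second was 7.89-fold higher in siKMO than in siCon. These are ratios of RNA differences, and neither tissue factor protein nor its clotting activity was measured.

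**Figure D3:**
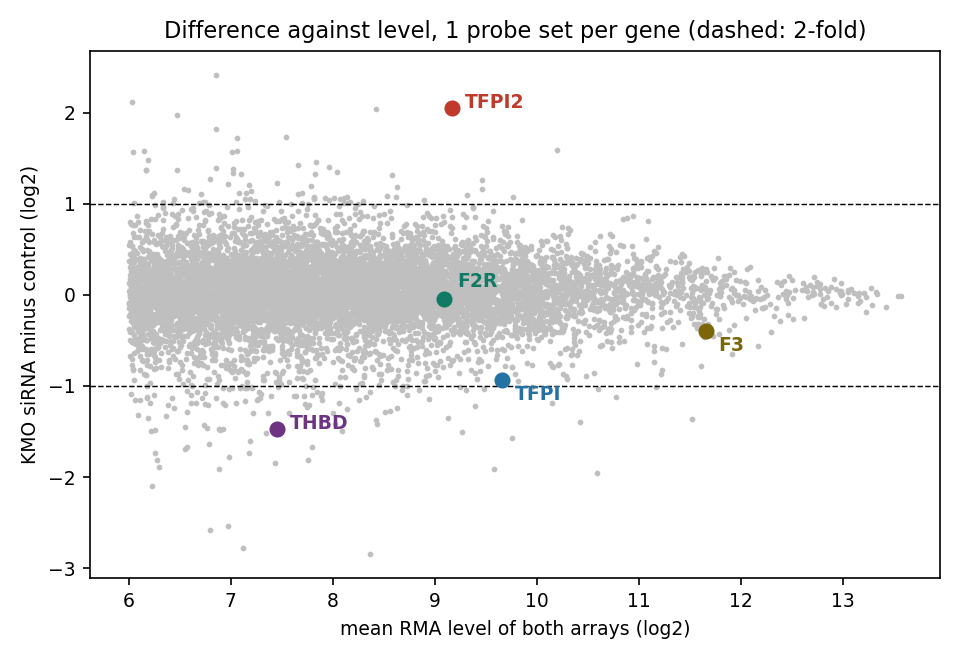
Difference, KMO siRNA minus control siRNA (log2, vertical axis), against the mean level of both arrays (log2, horizontal axis) for 8997 measured genes (grey) and the 5 measured members (coloured); the dashed lines mark 2-fold. TFPI2 lies at 2.05 and THBD at -1.47, outside the lines, TFPI at -0.93 and F3 at -0.39 inside them, and F2R at -0.05 near 0.

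THBD, thrombomodulin, was lower by more than 2-fold. Probe set 203887_s_at stood at 8.19 in siCon and 6.72 in siKMO, a difference of -1.47 or 2.77-fold lower. Probe set 203888_at stood at 7.46 and 6.04, a difference of -1.43 or 2.69-fold lower. Both measured probe sets were thus lower in siKMO by nearly the same amount, and the siKMO level of the second was close to the minimum. The third, 237252_at, was also lower in siKMO but stood at 4.92 and 4.05, under the minimum. THBD had the 30th lowest difference of 8997, and 0.635% of genes with 2 or more measured probe sets were at least 2-fold lower with all of them. Relative to F3 on the same arrays THBD was 2.11-fold lower. THBD is a known marker of endothelium and of squamous epithelium. Of the 8 endothelial markers ESAM alone was measured, at 7.61 in siCon and 6.61 in siKMO. Their summed log2 level, 33.9 in siCon and 32.6 in siKMO, is thus mostly made of levels under the minimum. The epithelial list moved down, as given above. The part of either list in the THBD difference was not tested.

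Of the thrombin receptor genes only F2R was measured, with 1 of its 2 probe sets. F2R, the main thrombin receptor PAR1, stood at 9.12 in siCon and 9.07 in siKMO with 203989_x_at, a difference of -0.05. Its other probe set, 1569642_at, stood at 5.96 and 5.62, both under 6. The ending _x_at marks probes that can bind other transcripts. 87.5% of measured genes differed by at least as much as F2R. F2RL2, the PAR3 receptor that serves as a cofactor for PAR4 on mouse platelets, stood at 2.62 and 3.24 with 230147_at and at 2.28 and 2.55 with 206795_at. Those levels lie in the range of the unrelated-tissue genes, 2.04 to 5.11 in siCon and 1.95 to 4.97 in siKMO, so the higher siKMO values give no usable difference. PAR4 (F2RL3), which is no member, stood at 2.06 and 2.16, also under 6. Among the 4 receptors, PAR1 was thus the only one with a measured level here, PAR2 not being analysed.

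The RefSeq gene table was used for which genes lie beside the members along the chromosome. F2RL2, F2R and F2RL1 form a cluster, with no other gene that has a named probe set between them; of the 6 such genes around the cluster AGGF1 alone was measured, at -0.25 (-0.25 to 0.05 over 3 probe sets, so with no shared sign). Beside TFPI2, GNG11, a G protein gamma subunit, stood at 8.38 in siCon and 9.42 in siKMO, 2.05-fold higher with its single measured probe set. GNGT1, which lies between them, was under 6, and BET1 and VPS50 further out differed by -0.06 and -0.11. Beside TFPI, GULP1, an adaptor of cell engulfment, differed by -0.67 (-0.67 to -0.53 over 3 probe sets), and FAM171B by -0.11. Near THBD, the transcription factor gene FOXA2 differed by -0.63 (-0.65 to -0.63 over 2 probe sets) and the noncoding LINC00261 by -0.91, while the adjacent SSTR4 and CD93 were under 6. Around F3, ABCD3, ARHGAP29 and CNN3 differed by 0.16, 0.08 and 0.27. Of 30 neighbours 11 were measured, of which GNG11 alone passed 2-fold, upwards. Of all 8997 measured genes, 0.856% reached 2-fold upwards and 1.39% downwards. Whether the GNG11 and TFPI2 differences are linked was not tested.

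**Figure D4:**
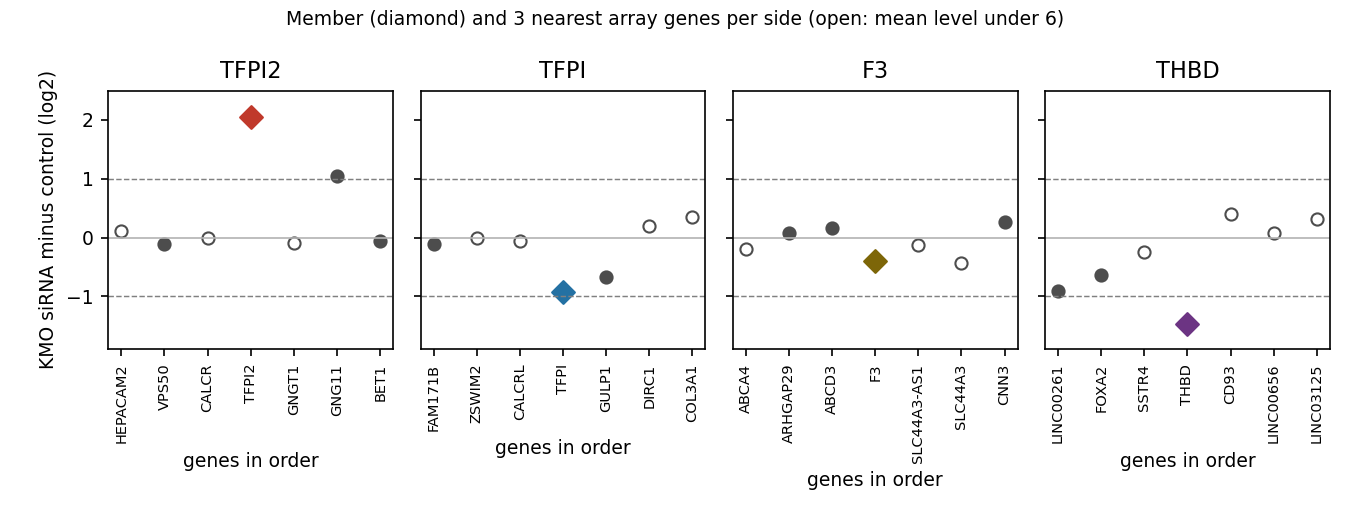
Difference, KMO siRNA minus control siRNA (log2, vertical axis), for TFPI2, TFPI, F3 and THBD (diamonds) and the 3 nearest genes with a named probe set on each side, in chromosome order and not to distance; open circles have a mean level under 6 and dashed lines mark 2-fold. GNG11 at 1.04 is the one neighbour past 2-fold.

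The other genes of the pathway were taken from lists that were written with earlier results of these data known. Among all 8997 measured genes the median difference was 0.04 and 44.1% had a lower value in siKMO. Of 18 clotting factors and enzymes of their vitamin K step, 4 were measured, none differed by 1.5-fold, and the median was -0.08. F8 differed by 0.37, F12 by -0.31, and GGCX and VKORC1, the enzymes of the vitamin K step, by 0.15 and -0.32. Factor VII, factor X and prothrombin, the clotting factors encoded by F7, F10 and F2, were under 6 on both arrays (5.38 and 5.33, 2.99 and 2.63, 4.34 and 4.54). Among 14 measured partners of tissue factor, such as integrins and protein disulfide isomerases, 11 were lower and 3 higher in siKMO. With the brightest probe set of each none differed by 1.5-fold, and the median was -0.15. P4HB, an isomerase, differed by -0.17 and ITGB1, an integrin subunit, by -0.41. RAB11A differed by -0.30 (-0.87 to -0.30 over 3 probe sets), so its lowest value was past 1.5-fold.

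Of 12 genes in a list of other anticoagulants 7 were measured, 6 lower and 1 higher, beside 44.1% lower of all measured genes. The median was -0.19. 2 of the 7, beside 1.39% of all measured genes, were at least 2-fold lower, SPINT1 (7.64 and 6.15, 2.80-fold) and SPINT2 (11.11 and 10.08, 2.05-fold). No other measured gene of the list passed 1.5-fold. SPINT1 and SPINT2 encode Kunitz inhibitors whose targets include hepsin, matriptase and the activator of hepatocyte growth factor. As these targets lie outside the clotting factors listed above, the count of 2 need not describe anticoagulants in the strict sense. Like TFPI and TFPI2, SPINT1 and SPINT2 carry Kunitz domains, but they are also epithelial genes. The 6 epithelial genes moved the same way, and the part of that shift was not tested. The count was 1 with a minimum level of 7, with the mean of all probe sets or without probe sets whose names end in _x_at or _s_at, and 0 when SPINT1 and SPINT2 were left out with the epithelial genes. PROCR, the receptor that presents protein C to the thrombin and thrombomodulin pair, differed by -0.19, PROS1, the cofactor protein S, by -0.21, and SERPINE2, a thrombin inhibitor, by 0.29. A list of Kunitz genes other than the members holds SPINT1 and SPINT2 again. Of its 12 genes with a probe set 6 were measured, 5 of them lower, with a median of -0.59. Besides SPINT1 and SPINT2, the collagen gene COL6A3 was 1.60-fold lower (-0.68). The amyloid precursor genes APP and APLP2 differed by -0.51 (-0.51 to -0.10 over 3 probe sets) and -0.26 (-0.41 to -0.09 over 8). COL7A1 differed by 0.37 (0.37 to 0.75 over 2). TFPI2 was the only measured gene with Kunitz domains in this list or among the members that was at least 2-fold higher. The members were chosen by this same contrast, so nothing is read from that.

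Of 26 proteases reported to cut protease-activated receptors outside the clotting cascade, 8 were measured. Among these 6 were lower and 2 higher, with a median of -0.22, beside 44.1% lower of all measured genes. MMP1 alone of the 8 was at least 2-fold lower, beside 1.39% of all measured genes. MMP1, interstitial collagenase and a reported activator of PAR1 in breast cancer cells, was 7.18-fold lower (9.78 in siCon, 6.94 in siKMO). CTSS, cathepsin S, differed by 0.72, and PLAU, urokinase, by -0.39. PRSS2 and PRSS3, trypsinogens that share sequence with each other and so can share signal, differed by -0.12 and -0.30. Of 19 measured genes that couple these receptors inside the cell, none differed by 1.5-fold with its brightest probe set. Among them 11 were lower and 7 higher, and the median was -0.07. The G protein subunits GNA12 and GNA13, which lead to RhoA, differed by 0.15 and 0.01, and GNAQ by -0.05. GNA11 differed by 0.52 (0.45 to 0.60 over 6 probe sets), so its highest value was past 1.5-fold. With a minimum level of 5 the list also held PLCB4, a phospholipase C, whose deposited levels of 4.41 in siCon and 5.92 in siKMO differ by more than 2-fold but are both under 6.

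Genes reported to rise after thrombin or PAR agonists were mostly lower in siKMO. Of 21 measured, 16 were lower and 5 higher, beside 44.1% lower of all measured genes, and the median was -0.41. At 2-fold, 3 were lower and 0 higher, beside 1.39% and 0.856% of all measured genes. The 3 were IL1B, interleukin-1 beta (3.33-fold), VEGFA, the angiogenic growth factor (2.27-fold), and EGR1, an immediate early transcription factor (8.47 and 7.32, 2.22-fold). DUSP6, JUNB, CXCL2, ICAM1 and IL6 were lower by 1.5-fold or more, and the chemokine gene CXCL1 was 1.66-fold higher, so 8 and 1 of the 21 passed 1.5-fold, beside 5.41% and 5.19% of all measured genes. CXCL8, interleukin-8, differed by -0.35, and CCN1 and CCN2, matrix proteins, by -0.04 and -0.06. When probe sets with the endings _x_at and _s_at were left out, the median was -0.11 and 1 gene was at least 2-fold lower. These genes answer many other signals, and the labels name no thrombin treatment.

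For 16 of the 20 measured transcription factors reported to act on F3 or THBD the siKMO value was lower, beside 44.1% of all measured genes. Their median was -0.18. EGR1 at -1.15 was the only one past 2-fold (-0.98 with its other probe set), beside 1.39% of all measured genes at least 2-fold lower. The AP-1 component JUNB followed at -0.85 and HIF1A, the hypoxia factor, at -0.65. KLF2 and KLF4, which raise THBD in endothelium, differed by -0.15 and -0.53. FOSL1, another AP-1 component, differed by 0.36, JUN by -0.29, and SP1 and SP3 by -0.25 and -0.03.

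**Figure D5:**
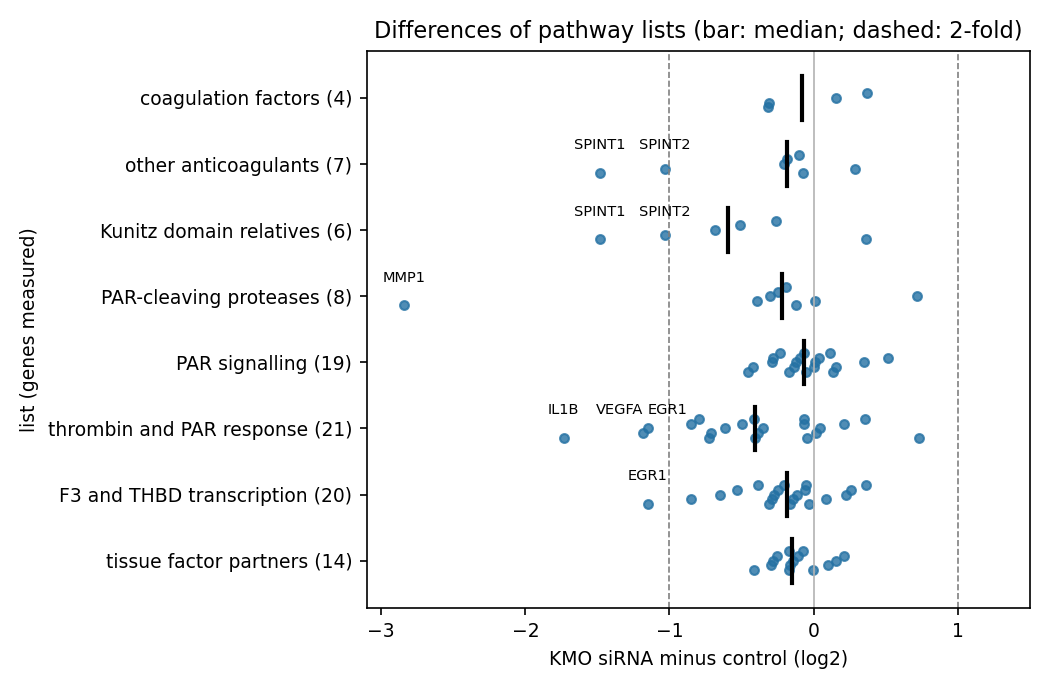
Difference, KMO siRNA minus control siRNA (log2, horizontal axis), of each measured gene (point) in 8 pathway lists, with the number measured in brackets; the bar is the list median, the dashed lines mark 2-fold and points are spread vertically for sight only. MMP1 at -2.84 lies furthest out, and the medians run from -0.59 to -0.07.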

How the data were processed

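Both arrays were hybridised with total RNA of MDA-MB-231 cells. The deposited values are log2 levels that the authors estimated by RMA, per the labels, which corrects background, quantile normalizes the arrays together and summarises probes into probe sets; the tool was Affymetrix Expression Console, per the submitters' processing notes, and its version is not given in the sources used here. RMA leaves weak probe sets at a background level, compresses their differences and hides a shift shared by all transcripts. The number of arrays limits the precision.

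Of 54675 probe sets, 41091 had 1 gene in the platform annotation (41037 updated by gene identifier against the RefSeq table), 1801 had several and named none, 11721 lacked an entry and stay unnamed, and 62 were controls of the array. Python 3.11.15 with pandas 2.3.3 computed siKMO minus siCon per probe set; no count model or test was used, since each group has 1 array. Promoters came from the RefSeq table of GRCh38.p14. The code was tested on simulated data.

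The members and lists were chosen with earlier results of these data known. All members were named, and from the lists the measured genes at 1.5-fold or more, at most 6 a list, plus F2RL3, F7, F10, F2, PROCR, EGR1, KLF2, KLF4 and MMP1. The genes next to TFPI2 in order and the nearest 3 named genes on each side were added; other genes were chosen after their values were seen. Alternatives changed the minimum level, the probe set rule, the handling of low levels, the centring and the threshold.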

Additional observations from a re-analysis of the deposited data

How the results depend on the processing

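The differences of TFPI2 and F3 moved by less than 0.1 log2 units under every alternative run, and those of TFPI and THBD kept their direction under all of them. With the mean of all probe sets THBD was at -1.26, F2R at -0.19, F2RL2 at 0.44 and the median of the clotting factors at 0.13, against -0.08. Without _x_at and _s_at probe sets F2R was at -0.34, from 1569642_at alone, whose levels of 5.96 and 5.62 are under the minimum. The Kunitz median was then -0.41 and the thrombin response median -0.11. With a minimum of 7 the clotting factor median was 0.15. With levels under 6 taken as 6 F2RL2 was at 0. By 1.5-fold, 2 members were lower. After the data were seen, single probe sets of TFPI were added, at -1.05 with 209676_at and -1.52 with 210665_at, and lists without epithelial genes, where the Kunitz median was -0.38 because SPINT1 and SPINT2 are left out. The count of genes at least 2-fold lower in the other anticoagulant and Kunitz lists was 1 each (against 2 each) with a minimum of 7. The count was also 1 in each with the mean of all probe sets and without _x_at and _s_at probe sets, and 0 in each without epithelial genes. In the thrombin response list it was 2 with the mean of all probe sets, against 3. Among the transcription factors it was 0 with that mean and without those probe sets, against 1. Genes that are not members were not followed one by one under the alternatives. The differences of the members at 2-fold or more, TFPI2 and THBD, kept their direction, while the sign of the clotting factor median was not settled. No paired analysis was possible because each group has 1 array. No replicate could be left out for the same reason, so the spread between cultures is unknown.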
